A study of Homo sapiens with 9 samples.

Results

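The regions described here are stretches of open chromatin in Jurkat cells that were called in 3 of 4 FAIRE-seq peak lists, those labelled NS DMSO, NS rottlerin and SW rottlerin, and not in the list labelled SW DMSO. They number 1679 of 40703 merged regions on chromosomes 1 to 22, X and Y. The members were chosen by the presence or absence of a called peak, after peaks of the 4 lists that overlapped or touched were joined into 1 region. Peak calls, scores and fold enrichments in these lists are therefore given as a description, and only position and sequence, which the rule did not use, are compared with intervals.

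Formaldehyde-assisted isolation of regulatory elements (FAIRE) recovers DNA that is not held by nucleosomes, and a peak marks a site where such DNA is enriched over total input DNA. Open chromatin in T cells lies at promoters, which are largely shared between cell types, and at distal enhancers, which are bound by lineage factors. In the T cell lineage these include the GATA, RUNX, ETS, MYB and TCF/LEF families, whereas AP1, NFAT, NFκB and EGR factors are activated by T cell receptor, calcium and protein kinase C signals.

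The study followed Jurkat clone E6-1, a human T cell leukaemia line, through 4 states of a transcriptional memory model. The states were non-stimulated (NS), stimulated with the phorbol ester PMA and a calcium ionophore (ST), rested after stimulus withdrawal (SW), and re-stimulated (RS), each after DMSO or the PKC inhibitor rottlerin. By the labels, the NS DMSO cells received the vehicle alone, the SW DMSO cells the vehicle with PMA and ionomycin for 4 h and 1 day of rest, and the NS rottlerin and SW rottlerin cells 15 μM rottlerin in place of the vehicle. The methods give a shorter stimulation than the labels. Peak lists of 4 of the 9 samples were used, each from 1 library of 1 clonal line, so that no difference between lists can be set against a spread between replicates.

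The lists are called here by their labels, which may not match the state of the cells. The methods describe peak calling on the DMSO samples of the 4 states, whereas the labels place 2 of the lists after rottlerin. The merged total of these lists, and the number left after other contigs were removed, are the same as the methods give for the 4 DMSO samples. Which cells stand behind each list could not be settled, and no result below is read as an effect of stimulus withdrawal or of rottlerin. T cell identity was visible in all 4 lists. Peaks lay within 1 kb of a transcription start site (TSS) of CD3D, CD3E, LCK, CD28 and BCL11B in each of them, while none of the 16 B cell, myeloid, erythroid and hepatocyte marker genes had one in any list. CD2 and CD7 had no such peak in any list, CD3G had one in the NS DMSO list alone, and CD5 in the SW rottlerin list alone.

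Before the values, the central 300 bp of 4 members are printed on Hg19, plus strand. For each motif found more often in the members than in the regions called in all 4 lists (below, shared regions), the window is that of the highest-scoring member that holds it and touches no untranslated region. Capitals mark the matches, on either strand, of the motifs named on that line only, and other motifs of a window stay in lower case.
SNRNP70 intron, chr19:49601214-49601513, with GATA and bHLH boxes, whose letters are given with their shares: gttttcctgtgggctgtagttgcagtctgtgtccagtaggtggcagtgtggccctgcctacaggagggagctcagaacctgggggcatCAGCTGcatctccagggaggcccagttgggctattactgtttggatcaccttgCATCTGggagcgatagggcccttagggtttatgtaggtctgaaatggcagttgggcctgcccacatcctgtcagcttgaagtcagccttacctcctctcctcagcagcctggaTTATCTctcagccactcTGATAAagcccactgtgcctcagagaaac
Region nearest HHIPL2, chr1:222437211-222437510, with RUNX (TGTGGT): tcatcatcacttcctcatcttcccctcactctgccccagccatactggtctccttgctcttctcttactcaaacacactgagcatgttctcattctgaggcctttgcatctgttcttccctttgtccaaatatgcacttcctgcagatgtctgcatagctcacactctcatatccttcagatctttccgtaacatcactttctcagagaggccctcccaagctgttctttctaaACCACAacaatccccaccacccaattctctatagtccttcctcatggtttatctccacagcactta
PNPLA1 intron, chr6:36255463-36255762, with TCF/LEF (CTTTGA): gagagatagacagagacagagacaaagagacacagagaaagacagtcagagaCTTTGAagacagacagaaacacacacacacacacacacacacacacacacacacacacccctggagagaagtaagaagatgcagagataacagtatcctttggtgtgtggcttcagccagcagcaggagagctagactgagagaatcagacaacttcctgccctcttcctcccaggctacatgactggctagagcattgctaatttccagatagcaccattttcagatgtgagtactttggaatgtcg
RPS6KA2 intron, chr6:166830686-166830985, with MYB (TAACNG): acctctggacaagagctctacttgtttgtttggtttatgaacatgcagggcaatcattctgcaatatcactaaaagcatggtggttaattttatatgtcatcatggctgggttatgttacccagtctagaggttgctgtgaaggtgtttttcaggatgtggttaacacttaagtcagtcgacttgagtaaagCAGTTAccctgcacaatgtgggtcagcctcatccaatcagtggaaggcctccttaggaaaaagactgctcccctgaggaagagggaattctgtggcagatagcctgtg
The window in SNRNP70, which encodes a protein of the U1 splicing particle, held a GATA match on each strand. The windows differed in base composition, from 44.7% GC in RPS6KA2 to 55.3% in SNRNP70.

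The members were weaker peaks than the shared regions, as were the regions missing only in another list. The score deposited for each peak is 10 times the −log10 of its q-value without decimals, and a region takes its highest score in a list. The median score of the members was 43 in the NS DMSO list (quartiles 29.5 and 59), 54 in the NS rottlerin list (37 and 74) and 44 in the SW rottlerin list (31 and 63). The 10841 shared regions had medians of 82, 92 and 100 in the same lists, and of 79 in the SW DMSO list. Median fold enrichment over input was 3.75, 3.97 and 3.80 in the members against 4.44, 4.64 and 4.81. Members lay above the median score of their own list in 27.3% of cases for NS DMSO, 43.9% for NS rottlerin and 36.7% for SW rottlerin. Regions missing only in NS rottlerin had median scores of 45 (NS DMSO), 43 (SW DMSO) and 46 (SW rottlerin). Those missing only in SW rottlerin had 48 (NS DMSO), 35 (SW DMSO) and 39.5 (NS rottlerin). Those missing only in NS DMSO had 47 (SW DMSO), 51 (NS rottlerin) and 65 (SW rottlerin).

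**Figure D1:**
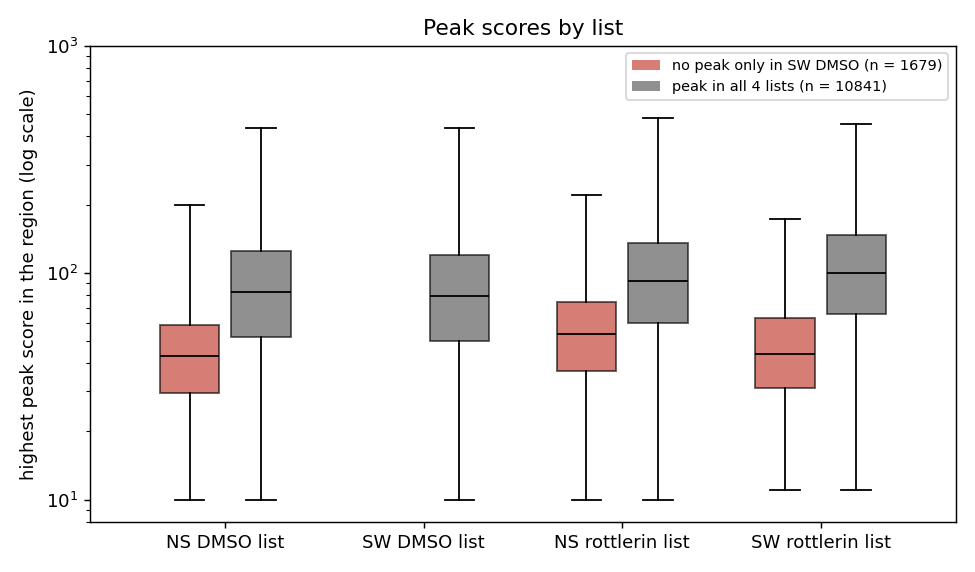
Highest peak score per region (log axis) in each list, for the 1679 members (red) and the 10841 shared regions (grey). Boxes span the quartiles, lines inside them are medians and whiskers reach the lowest and highest region. Member medians were 43 to 54 and the medians of the other regions 79 to 100. Members have no box in the SW DMSO list by definition.

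Members and regions shared by all lists also differed in which list scored highest. Among the members, the SW rottlerin score exceeded the NS rottlerin score in 612 regions and was below it in 1033, with a median difference of −7. Among the shared regions the same difference was 7, with a higher SW rottlerin score in 58.3% of regions. These scores are part of what chose the members, and the order is given without a test.

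Of the 12520 regions with a peak in the other 3 lists, 13.4% had none in the SW DMSO list. The same share was 21.0% for the NS DMSO list, 7.33% for the NS rottlerin list and 3.02% for the SW rottlerin list. This order followed the length of the lists, which held 18977 (NS DMSO), 20132 (SW DMSO), 23835 (NS rottlerin) and 30409 (SW rottlerin) peaks. With the 18977 highest-scoring peaks of each list, the SW DMSO list lacked 903 regions, or 8.72%, beside 16.2% for NS DMSO, 7.61% for NS rottlerin and 8.24% for SW rottlerin. Of those 903 regions, 837 were members with the same borders. Sequencing depth is unknown from the lists, and its part in the number of members was not tested.

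The share without a SW DMSO peak fell from weak to strong regions, which is given as a description because the rule used these calls. In the decile of regions with the lowest scores in the other 3 lists (lowest of 3 scores 10 to 24), 38.9% had no SW DMSO peak. In the fifth decile (scores 49 to 59) the share was 11.8%, and in the eighth (87 to 109) it was 0.240%. None of the 1252 strongest regions lacked a SW DMSO peak.

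**Figure D2:**
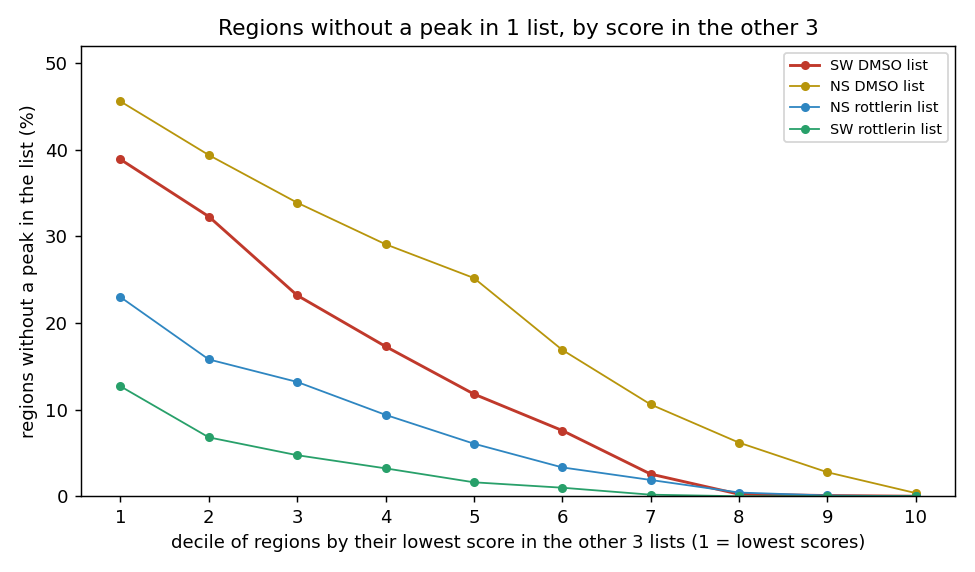
Share of regions (%) without a peak in 1 list, by decile of their lowest score in the other 3 lists, for each of the 4 lists. Points are shares with no interval. The SW DMSO curve (red) runs from 38.9% in the lowest decile to 0 in the highest, below the NS DMSO curve and, in the first 7 deciles, above both rottlerin-labelled curves.

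Median width of the members was 328 bp (quartiles 253 and 528), against 445 bp for the shared regions and 322, 317 and 354 bp for regions missing only in the NS rottlerin, SW rottlerin and NS DMSO lists. The mid-points of the 3 lists' peaks in a member lay a median of 46.5 bp apart from the first to the last, and the 3 peaks shared at least 1 base in 1666 members. The nearest SW DMSO peak was a median of 24663 bp away. It lay within 1 kb of 48 members and within 10 kb of 471, or 28.1%.

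Values just inside and just outside the rule overlapped. The member closest to a SW DMSO peak, 26 bp away, lay at chr13:43566346-43566870 before EPSTI1, with scores of 44 (NS DMSO), 30 (NS rottlerin) and 27 (SW rottlerin). The next lay 220 bp away in an intron of SERINC5, with scores of 64, 36 and 20. Others within 1 kb were found near BCL2L14 (573 bp), 609 bp from a SW DMSO peak at a region whose nearest coding gene was SYK, and in CD47 (636 bp), which encodes the "don't eat me" receptor. On the other side of the rule, 17 shared regions had a SW DMSO score of 12 or less. The lowest, 10, were in introns of TBC1D5 (59 in NS DMSO, 25 in NS rottlerin, 45 in SW rottlerin) and GLRB (15, 47 and 36). The next, at 11, lay in introns of ATP8A2 and FNDC3A and between genes near LGI1. The scores of these 5 regions in the other 3 lists, from 15 to 59, were within the range of the members.

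The strongest members were named by the lowest of their 3 scores. The highest lay in an intron of SNRNP70 (chr19:49601128-49601599), with scores of 123 in NS DMSO, 166 in NS rottlerin and 117 in SW rottlerin. Its nearest SW DMSO peak was 12.4 kb away. The member at chr19:18208396-18208633 scored 108, 108 and 114. It lay in IL12RB1, which encodes a subunit of the interleukin-12 receptor, and 73 bp from a TSS of the neighbouring kinase gene MAST3. Scores of 101, 119 and 100 were found 143 bp inside RAP1GAP2, which encodes an inhibitor of the small GTPase Rap1. These 3 members and the next were the only 4 members with a lowest score above 87. The fourth (chr1:222437220-222437502) scored 93, 93 and 116 in a long noncoding gene, 261 kb from the nearest coding TSS, that of HHIPL2.

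The other 8 of the 12 strongest had a lowest score of 81 to 86. They lay in introns of RPS6KA2 (a ribosomal S6 kinase), GNB1 (a G protein β subunit), NPC1 (a cholesterol transporter of late endosomes), PNPLA1, CDKL4 and MYO3B, in the promoter of ZNF322, and in the 3′UTR of VPS51, 71 bp from a TSS of the sterol reductase gene TM7SF2. The NPC1 region was the widest of them at 856 bp, with scores of 85, 120 and 117. In RPS6KA2 the scores were 86, 91 and 120, and in PNPLA1 84, 116 and 83. No list was highest throughout these regions.

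Among members between genes, the strongest lay at chr3:33015509-33015777, 22.5 kb from the TSS of CCR4, a chemokine receptor of T cells, with scores of 111 in NS DMSO, 148 in NS rottlerin and 71 in SW rottlerin. Next came a region 10.6 kb from ULBP3, a ligand of the receptor NKG2D (80, 83 and 69), and one 94.3 kb from ADTRP (71, 100 and 67). The strongest promoter members after ZNF322 (82, 89 and 123) were those of TRIM25, a ubiquitin ligase of antiviral signalling (79, 85 and 104), and GAR1, a protein of small nucleolar particles (90, 79 and 78). The strongest members in exons lay in noncoding transcripts near SLC25A39 (103, 80 and 129), in LYPLAL1-DT (72, 81 and 85) and in FALEC near ECM1 (71, 89 and 89).

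The members were mainly distal, as were the merged regions as a whole. Mid-points were placed with GENCODE release 44 genes on GRCh37. Introns held 57.7% of members (95% Wilson interval 55.3 to 60.1, for counting error only, since regions of 1 library are not replicates), intergenic sequence 14.1%, promoters (1 kb before a TSS) 7.74%, exons 7.03%, sequence 1 to 10 kb upstream of a TSS 5.84%, 5′UTRs 4.65% and 3′UTRs 2.98%. Introns and intergenic sequence together held 71.8%, beside 70.0% of all merged regions, and promoters 7.74% beside 9.07%. The first share was 21.9 percentage points (below, points) more than in the shared regions (95% Newcombe interval 19.5 to 24.2). For promoters the difference was −13.7 points (−15.1 to −12.1). The nearest TSS lay at a median of 4427 bp from the members and 210 bp from the shared regions. When the latter were weighted to the members' GC deciles, the difference in introns and intergenic sequence was 7.86 points, and with weights for NS DMSO score it was 10.9 points.

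Regions missing only in the NS rottlerin or the NS DMSO list were placed much as the members were. The share in introns and intergenic sequence differed by 0.124 points from regions missing only in the NS rottlerin list (interval −3.53 to 3.88) and by −0.794 points from those missing only in the NS DMSO list (−3.51 to 1.88). The 338 regions missing only in the SW rottlerin list were more often there, at 80.8%, a difference of −9.00 points (−13.4 to −4.00). Over chromosomes, members were rarer on chromosome 19 than the shared regions, at 2.74% against 6.59% (difference −3.85 points, interval −4.68 to −2.84), and on chromosome 17, at 4.05% against 5.76% (−1.71 points, −2.66 to −0.572). They were more frequent on chromosomes 13 (1.20 points, 0.359 to 2.24), 10 (1.20 points, 0.0933 to 2.48) and 8 (1.07 points, 0.0713 to 2.25). The other chromosomes had intervals that included 0. No interval was adjusted for the number of chromosomes, and shares over all merged regions were not counted by chromosome.

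Base composition followed location. The median GC content of the central 300 bp was 46.0% in the members and 57.0% in the shared regions, with medians of 4 and 15 CpG dinucleotides. CpG-island-like sequence (GC over 50% and an observed to expected CpG ratio over 0.6) made up 19.5% of members (17.7 to 21.5) and 21.0% of all merged regions. The difference from the shared regions was −30.7 points (interval −32.7 to −28.5). It was more frequent than in regions missing only in the NS rottlerin list (3.78 points, 0.613 to 6.80), the SW rottlerin list (11.8 points, 8.04 to 14.9) or the NS DMSO list (3.68 points, 1.40 to 6.03). The first of these 3 differences was −2.80 points (−8.39 to 2.70) in the higher-scoring 50% of each list. Over 1 kb from any TSS all 3 had intervals that included 0, at −0.265 (−2.16 to 1.33), 2.18 (−0.0303 to 3.44) and 0.0619 points (−1.10 to 1.36), a comparison chosen after seeing the data. With GC weights, also chosen then, the differences were 2.89 points for the SW rottlerin list and 1.10 points for the NS DMSO list.

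**Figure D3:**
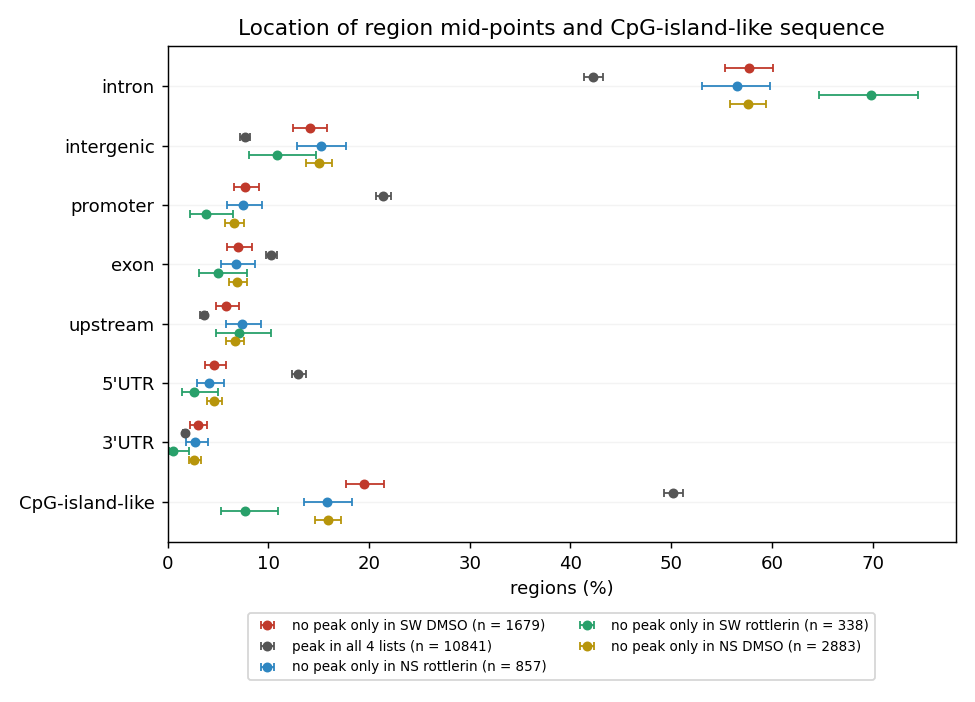
Share of regions (%) by location of the mid-point, and share with CpG-island-like sequence, in the members (red) and 4 other groups. Points are shares and bars are 95% Wilson intervals. The members lie at 57.7% for introns and 7.74% for promoters. Regions missing only in NS rottlerin (56.5% and 7.47%) and only in NS DMSO (57.6% and 6.59%) lie close to them. Regions missing only in SW rottlerin lie at 69.8% and 3.85%, and the shared regions at 42.2% and 21.4%.

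The GATA motif was more frequent in the members than in each of the other 4 groups. It was present in 37.5% of members (630 regions, 35.2 to 39.9), beside 31.5% of all 40703 regions. The share was 17.8 points above that of the shared regions (interval 15.4 to 20.2). It was also 11.0 points above regions missing only in the NS rottlerin list (7.22 to 14.7), 7.34 above those missing only in SW rottlerin (1.76 to 12.5) and 6.24 above those missing only in NS DMSO (3.38 to 9.11). A match is a string of letters in the window and not a measured binding site. GATA3 is the GATA factor of the T cell lineage. With weights for GC, the difference from the shared regions was 7.56 points, and among regions over 1 kb from any TSS it was 10.2 points (7.02 to 13.4). The difference from regions missing only in SW rottlerin had an interval that included 0 in the higher-scoring 50% of each list (2.57 points, −5.24 to 9.58) and in windows of 500 bp (2.39 points, −3.45 to 8.15).

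GATA matches were centred in the members. The same 300 bp window moved by 1 kb to either side held a GATA match in 27.5% of 3358 windows, so that the centre exceeded the flanks by 10.0 points (7.28 to 12.8). In the shared regions the central window held GATA less often than the flanks, at 19.8% against 26.0%. Of the shared regions, 61.8% lay within 1 kb of a TSS. Their central windows held GATA in 9.77% of cases, against 35.9% in shared regions farther away. The comparison with flanks was not split by distance to a TSS or weighted for GC. Central and flanking shares were 26.5% and 27.0% for regions missing only in NS rottlerin, 30.2% and 31.2% for those missing only in SW rottlerin, and 31.3% and 28.6% for those missing only in NS DMSO. In the 100 bp before and after the mid-point, there were 191 and 192 GATA matches per 1000 members, against 111 in the bin from −1000 to −900 bp. Both forms contributed, with AGATAA in 26.0% and TGATAA in 17.2% of members. In 52 members a GATA match overlapped a MYB match, and in 16 a TCF/LEF match.

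The AP1 motif (TGAGTCA), bound by FOS and JUN proteins, stood at the other end. It was present in 56 members, or 3.34% (2.58 to 4.31), beside 13.2% of all merged regions. The difference was −3.36 points from the shared regions (interval −4.26 to −2.29) and −26.5 points from the regions missing only in the NS DMSO list (−28.3 to −24.6), of which 29.8% held it. The members also lay below regions missing only in NS rottlerin (8.63%, difference −5.30 points, −7.50 to −3.34) and only in SW rottlerin (6.80%, difference −3.47 points, −6.76 to −1.04). The flanking windows of the members held AP1 in 4.29% of cases, a difference of centre from flank of −0.953 points (−2.01 to 0.207), whereas in the shared regions the centre exceeded the flanks by 2.52 points (1.99 to 3.07). Among regions over 1 kb from any TSS, the difference of the members from the shared regions was −8.91 points (−10.3 to −7.35).

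**Figure D4:**
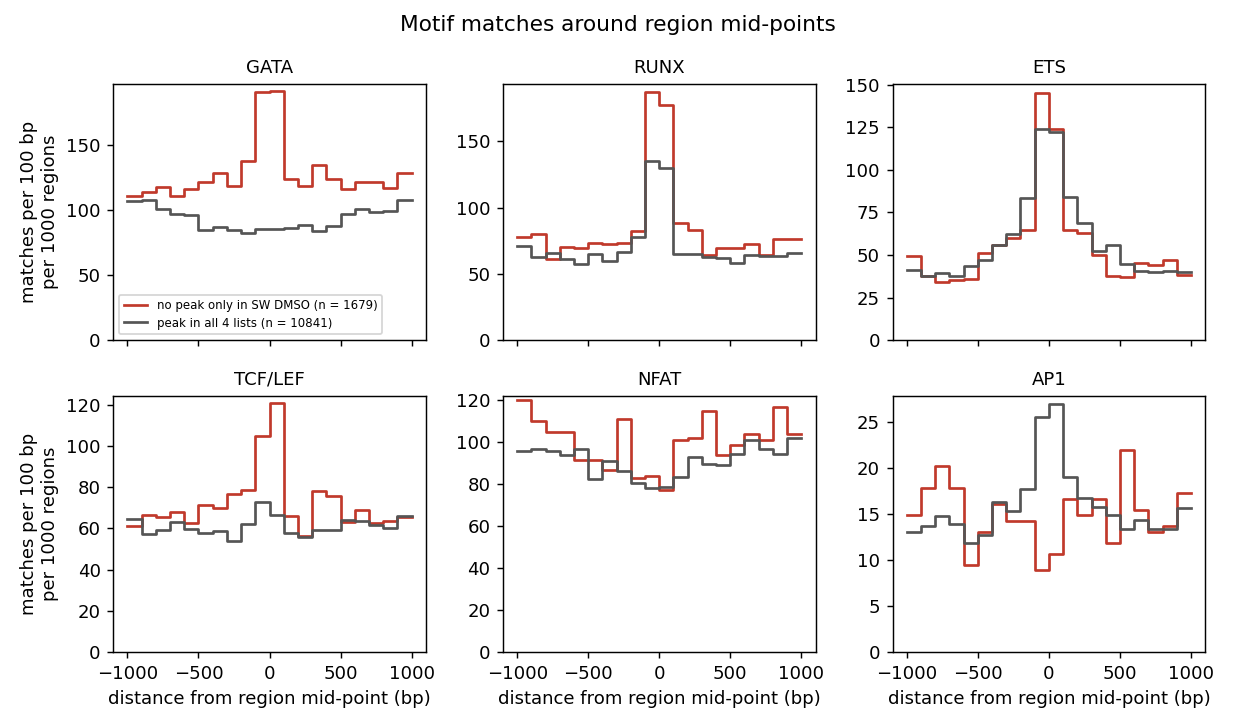
Motif matches per 100 bp and per 1000 regions, by distance from the region mid-point (bp), in the members (red) and the shared regions (grey). Neither group is weighted for GC or split by distance to a TSS. GATA matches rise to 191 and 192 in the central bins of the members while those of the shared regions stay at 85.9 and 85.5, whereas AP1 matches peak in the shared regions at 25.6 and 27.0 and dip to 8.93 and 10.7 in the members.

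ETS, RUNX and TCF/LEF matches were also centred in the members, but not in them alone. In the members the centre exceeded the flanks by 17.3 points for ETS, 16.4 for RUNX and 6.70 for TCF/LEF. The shared regions had 16.9, 8.09 and −0.0922 points. Regions missing only in NS rottlerin had 4.20, 23.7 and 5.19 points. Those missing only in SW rottlerin had 13.8, 25.7 and 3.99 (−1.14 to 9.45), and only in NS DMSO 16.2, 13.9 and 5.65. ETS (CCGGAAG or CAGGAAG), the motif of ETS1 and related factors, was found in 28.8% of members (26.7 to 31.0) and in 11.4% of their flanks. The share did not separate the members from the shared regions (difference 1.40 points, interval −0.879 to 3.76) or from regions missing only in NS DMSO (1.99, −0.691 to 4.71). It was 12.9 points above regions missing only in NS rottlerin (9.55 to 16.1) and 5.99 above those missing only in SW rottlerin (0.775 to 10.7). The last difference was 3.82 points (−0.349 to 7.95) with lists of equal length and 5.89 (−0.130 to 11.2) over 1 kb from any TSS. The CAGGAAG form was in 23.5% of members and 16.4% of the shared regions, and the CCGGAAG form in 6.43% and 12.6%. Of all merged regions, 24.0% held an ETS match.

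RUNX (TGTGGT), the motif of RUNX1 and RUNX3, was found in 36.4% of members (34.1 to 38.7) and 32.8% of all regions, and the centre of the members exceeded their flanks by 16.4 points (13.7 to 19.1). It exceeded the shared regions by 10.0 points (7.63 to 12.5), but with GC weights the difference was 0.0362 points, and over 1 kb from any TSS it was −3.87 points (−7.06 to −0.644). Regions missing only in NS rottlerin (43.6%) and only in SW rottlerin (45.0%) held it more often than the members, with differences of −7.25 (−11.3 to −3.22) and −8.58 points (−14.4 to −2.87). The last was −5.03 points (−11.8 to 1.70) over 1 kb from any TSS. Regions missing only in NS DMSO (33.2%) held RUNX less often than the members, with a difference of 3.20 points (0.337 to 6.08). With lists of equal length that difference was −0.708 points (−4.39 to 3.06). MYB matches were present in 31.6% of members and 29.4% of all regions, and TCF/LEF in 24.7% and 23.2%. Both exceeded the shared regions, MYB by 6.64 points (4.31 to 9.04) and TCF/LEF by 7.86 points (5.73 to 10.1). With GC weights these differences were 0.884 and 1.86 points, and over 1 kb from any TSS 2.70 (−0.332 to 5.81) and 2.21 points (−0.660 to 5.18).

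Motifs of signal-dependent factors were not centred in the members, apart from EGR. NFAT (TGGAAA), a target of calcium signals, was in 21.6% of central windows and 27.6% of flanks, and in 27.9% of all regions. The difference was −15.7 points from regions missing only in NS rottlerin (interval −19.5 to −11.9), of which 37.2% held it, and 1.15 points from the shared regions (−0.903 to 3.31). The first of these was −11.0 points (−15.3 to −6.65) with lists of equal length. In the higher-scoring 50% of each list it was −4.22 points (−9.32 to 0.682). The NFAT difference from the shared regions was 4.57 points (1.69 to 7.67) in that setting and 3.74 (1.32 to 6.22) in windows of 500 bp. Over 1 kb from any TSS it was −2.90 points (−5.63 to −0.0416), and with GC weights −3.55 points. NFκB (GGGANNTTC) was in 2.86% of members, 3.13% of flanks and 3.60% of all regions. EGR (GCGNGGGCG), a GC-rich motif of zinc finger factors, was in 4.41% of members, 0.625% of flanks and 3.89% of all regions. It was in 13.4% of members within 1 kb of a TSS and in 0.593% of members farther away. The shared regions held it in 8.09% of central windows and 1.06% of flanks. The EGR share of the members was 1.84 points above that of regions missing only in NS rottlerin (0.278 to 3.23). Over 1 kb from any TSS that difference was −0.215 points (−1.33 to 0.564), a comparison chosen after seeing the data. The insulator motif CTCF (CNAGGGGGC), searched as a comparison, was in 2.20% of members, 0.834% of flanks and 2.41% of all regions.

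The 3 bHLH boxes, sites of E proteins such as TCF3 and TCF12 and, for CACCTG, of ZEB repressors, differed among themselves. CAGCTG was in 19.5% of members and 12.4% of their flanks, and CATCTG in 24.2% and 18.7%. CACCTG was less frequent in the centre than in the flanks, at 21.4% against 25.4% (difference −3.99 points, −6.41 to −1.50). In regions missing only in NS rottlerin the order for CACCTG was the opposite, with 30.0% in the centre and 26.1% in the flanks, and the difference of the members from those regions was −8.61 points (−12.3 to −5.01). Over all regions the shares were 21.4% for CACCTG, 17.1% for CAGCTG and 21.4% for CATCTG.

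**Figure D5:**
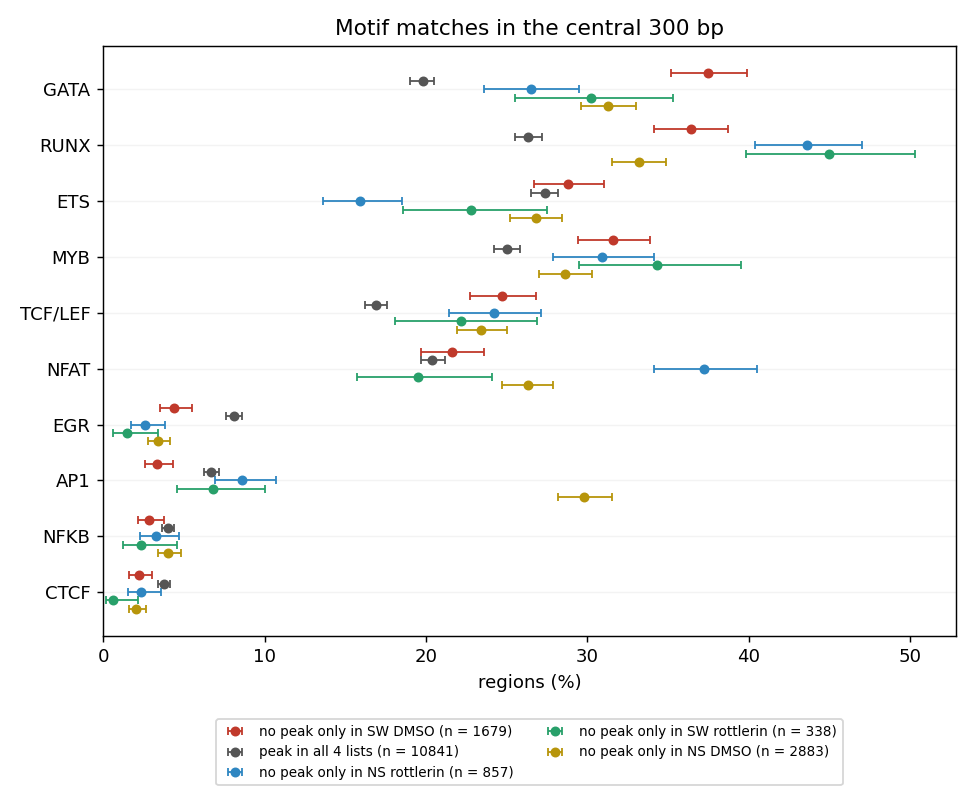
Share of regions (%) with at least 1 motif match in the central 300 bp, in the members (red) and 4 other groups. Points are shares and bars are 95% Wilson intervals. The members are highest for GATA (37.5%) and lowest for AP1 (3.34%), while NFAT is highest in regions missing only in NS rottlerin (37.2%) and AP1 in those missing only in NS DMSO (29.8%).

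Combinations of the lineage motifs were counted next, and no share expected from the single motifs was computed. A match to 2 of GATA, RUNX and ETS was found in 24.1% of members (22.1 to 26.2), and to all 3 in 4.76% (3.85 to 5.89). The shared regions held 2 in 14.1% and 3 in 1.96%, and all merged regions in 18.7% and 2.39%. Regions missing only in SW rottlerin had intervals that overlapped those of the members, at 21.6% (17.5 to 26.3) and 3.55% (2.04 to 6.10). Those missing only in NS DMSO held 2 in 20.2% and 3 in 2.39%, and those missing only in NS rottlerin in 16.5% and 1.40%. GATA with ETS occurred in 10.6% of members (9.22 to 12.2), against 4.87% of the shared regions, 2.33% of those missing only in NS rottlerin, 3.85% of those missing only in SW rottlerin, 7.39% of those missing only in NS DMSO and 6.72% of all merged regions. GATA with AP1 occurred in 15 members, or 0.893%, in 10.3% of regions missing only in NS DMSO and in 4.66% of all merged regions. None of the 3 lineage motifs was found in 519 members, or 30.9%, beside 30.8% of regions missing only in SW rottlerin and 35.2% of all merged regions.

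The members fell into a distal and a TSS-proximal kind. Over 1 kb from any TSS there were 1180 members, with a median GC content of 44.0%, and 2.97% of them were CpG-island-like. GATA matches were present in 46.1% of these (43.3 to 49.0), RUNX in 44.0% and TCF/LEF in 29.2%. Within 1 kb of a TSS there were 499 members, with a median GC content of 62.7%, of which 58.7% were CpG-island-like. GATA was in 17.2% (14.2 to 20.8) and RUNX in 18.4% of these, but EGR in 13.4% and ETS in 31.5%. AP1 was in 3.56% of distal and 2.81% (1.68 to 4.65) of proximal members. The shared regions held AP1 in 12.5% of distal and 3.12% (2.73 to 3.57) of proximal regions, so the interval of the proximal members held the shared regions' share, and the lower share was seen in distal regions. GATA was in 35.9% and 9.77% of the shared regions.

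Stronger members held GATA less often than weaker ones, which is given as a description because the classes use the peak scores. The share was 42.0% (37.9 to 46.1) in the lowest of 3 equal score classes (lowest of 3 scores 10 to 26), 38.8% in the middle class and 31.8% (28.1 to 35.8) in the highest (39 to 117). CpG-island-like sequence made up 15.7%, 14.5% and 28.4% of the same classes, and the median GC content was 44.2%, 45.3% and 49.7%. Members within 1 kb of a TSS made up 25.0%, 26.8% and 37.4% of them, and GATA shares by class were not split by that distance. AP1 shares were 4.64%, 3.21% and 2.15%, and ETS shares 26.1%, 28.9% and 31.3%, with intervals that overlapped between classes.

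Genes near the members were counted over lists of T cell genes, within 50 kb of a TSS. The TCR signalling list (25 genes) had 11 members near 9 genes, or 0.655% of members (0.366 to 1.17), against 0.618% of the shared regions and 0.477% of all regions. The strongest lay in an intron of GRAP2, the adaptor GADS that links LAT to SLP-76 (chr22:40347577-40348679), with scores of 110 in NS DMSO, 58 in NS rottlerin and 79 in SW rottlerin. A second GRAP2 member, 76 bp from a TSS, scored 59, 26 and 23. The next by score lay before CREG1, 35.2 kb from CD247, the CD3 ζ chain gene (59, 54 and 46). Others lay in introns of PLCG1 (50, 91 and 36), LCK (42, 72 and 33) and CD28 (32, 69 and 85), and near CD6 (40, 84 and 110). At PLCG1 and LCK the NS rottlerin score was the highest of the 3, and at CD28 and CD6 the SW rottlerin score.

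Members near transcription factors of T cells and T cell leukaemia (17 genes) numbered 8, or 0.476% (0.242 to 0.937), against 0.397% of the shared regions and 0.393% of all regions. The strongest lay in an intron of RUNX1 (chr21:36423642-36423961), which encodes a core haematopoietic factor, with scores of 74, 84 and 94 in NS DMSO, NS rottlerin and SW rottlerin. Its nearest SW DMSO peak was 1.80 kb away. The next was 34.3 kb from TCF7 beside SKP1 (73, 66 and 82), and another lay 71 bp before TCF7, the gene of the factor TCF1 (92, 44 and 88). A member in an intron of NOTCH1, a receptor often mutated in T cell leukaemia, scored 48, 122 and 140, and one in ETS1 scored 37, 29 and 79. Of the bHLH, ID and ZEB genes (10 genes), TCF4 (48, 56 and 104), TCF12 (58, 69 and 45, at 23.8 kb) and TCF3 (19, 72 and 84, at 23.1 kb in MBD3) each had 1 member, or 0.179% of members in all, against 0.199% of all regions.

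The list of activation-induced genes (31 genes) had 12 members near 9 genes, or 0.715% (0.409 to 1.25), against 0.470% of the shared regions and 0.528% of all regions. The strongest lay in an intron of the cytokine gene IL26, 44.0 kb from IFNG (43, 69 and 52 in NS DMSO, NS rottlerin and SW rottlerin). NFKB1, the gene of the NFκB subunit p50, had 2 members, with scores of 136, 63 and 42 at chr4:103519517-103520024 and of 38, 82 and 61. A region 6.22 kb from IL2RA, the interleukin-2 receptor α chain gene, scored 27, 61 and 32. Near FASLG, the death ligand gene, the scores were 63, 26 and 30, and in ICOS, a costimulatory receptor gene, 31, 18 and 80. No single list was highest across these loci.

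The 9 homing and quiescence genes had 2 members, or 0.119% (0.0327 to 0.433), against 0.101% of the shared regions and 0.150% of all regions. The member near IL7R, the interleukin-7 receptor gene, lay 21.9 kb from its TSS (52, 34 and 77). No member lay near the 9 genes of recombination and early T cell development, against 0.0369% of the shared regions and 0.0712% of all regions. A count of 0 of 1679 allows a share of up to 0.228% (Wilson). Cytosolic ribosomal protein genes (87 genes) had 19 members, or 1.13% (0.726 to 1.76), against 1.66% of the shared regions and 0.830% of all regions. The strongest lay in DIPK1A, 42.5 kb from RPL5 (51, 62 and 51), and before TIMM8A, 42.1 kb from RPL36A (49, 112 and 48). For each of these 7 lists, the interval of the members' share held the share over the shared regions.

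Genes with the most members are given without a baseline for clustering. NIPAL3 and TANC1 each had 4 members within 50 kb of a TSS, and 16 protein-coding genes had 3. At NIPAL3, where 7 regions of any kind lay, the 4 members included 1 in the 5′UTR (102 in NS DMSO, 88 in NS rottlerin, 51 in SW rottlerin) and 1 in RCAN3, a regulator of calcineurin (47, 48 and 117). At TANC1, a scaffold protein gene, the 4 members were among 9 regions and had lowest scores from 15 to 40. Of the 16 genes with 3 members, 4 with known roles in T cells are named, chosen after their values were seen. They are TRAT1, a TCR-associated adaptor, CD40LG, the ligand of CD40, PRKCH, a protein kinase C, and STIM1, the calcium sensor of store-operated entry. The TRAT1 members lay 16.2 kb, 2.04 kb and 19 bp from a TSS. The first (chr3:108525170-108525635) scored 64, 197 and 72 in NS DMSO, NS rottlerin and SW rottlerin, the second 34, 28 and 21, and the third 63, 62 and 31. At CD40LG the 3 members were among 17 regions, 8 of which had a SW DMSO peak. Those 21.6 and 38.0 kb from a CD40LG TSS lay in introns of ARHGEF6. GATA matches were held by each CD40LG member, by some members at TRAT1 and STIM1, and by none at PRKCH. PRKCH had 3 members among 31 regions, 14 with a SW DMSO peak, and STIM1 3 among 23, 10 with one.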

How the data were processed

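FAIRE-seq libraries of 9 Jurkat samples were made, and the peak lists of 4 were analysed, grouped by their labels. The other 5 were not analysed here. The authors used CutAdapt for trimming, Bowtie2 for mapping to Hg19, Picard for duplicates and MACS2 for broad peaks over total input. For every peak the deposited lists hold its score, a ratio (fold over input), and p and q values as −log10. Depth is not given in the sources used here. Of 93353 peaks, 3 had a score other than the whole part of 10 times −log10 q.

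Peaks off chromosomes 1 to 22, X and Y were left out (28 merged regions). Each mid-point took the first of these classes that applied, by GENCODE release 44 lifted to GRCh37: untranslated region (5′, then 3′), other exon, intron, 1 kb promoter, up to 10 kb upstream, and otherwise intergenic. Both strands were searched for motifs. Shares have 95% Wilson and differences 95% Newcombe intervals. With 1 library per list no test was made.

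Members were named as the 12 with the highest lowest score, the 3 highest per location, the 2 highest per gene list, the 5 genes with most members (here 2, since others tied) and the 5 nearest to the rule's limit. Further members of the gene lists were named after their values were seen. Members on chromosome Y are not named, and some members that the rule names are not reported here. The members and lists were chosen with earlier results of these data known. The genome copy did not mark repeats, so repeat content is not given. Steps were tested on simulated data. Sequence was read with samtools 1.23.1 and pysam 0.24.0. Tables and intervals were made in Python 3.11.15 with scipy 1.17.1, pandas 2.3.3 and numpy 2.4.6, and plots with matplotlib 3.10.9.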

Additional observations from a re-analysis of the deposited data

How the results depend on the processing

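Of 928 values recomputed for 90 results under 15 settings, 782 stayed within the interval of the reported value (for the number of members, within 1.5 times). Another 141 moved beyond the interval, and 5 were counted as changed in sign. A change of sign was counted only where both ends of the reported interval had the same sign. Other differences that changed sign were classed by the interval alone. One was the ETS difference from regions missing only in NS DMSO, reported as 1.99 and −0.980 in the higher-scoring 50% of each list. With 18977 peaks in every list the members numbered 903, 67.8% lay in introns or intergenic sequence, 10.7% in promoters and 25.1% were CpG-island-like, with a median TSS distance of 3766 bp and GC of 47.7%, and the AP1 difference from regions missing only in NS DMSO was −30.3 points and the RUNX difference −0.708. In the higher-scoring 50% of each list the values were 831, 63.2%, 15.5%, 34.4%, 2103 bp and 49.7%, the intron and intergenic difference from the regions in all 4 lists was 26.1 points and that of AP1 −1.78, the CpG-island-like difference from regions missing only in NS rottlerin was −2.80, and the ETS difference from those missing only in NS DMSO −0.980. With promoters placed first, introns and intergenic sequence held 62.8% and promoters 23.6%. With protein-coding genes only, the first was 75.6% and the median TSS distance 7689 bp.

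With a window of 200 bp the GC median was 47.0%, the GATA difference from regions missing only in SW rottlerin 13.2 points and the AP1 difference from those missing only in NS DMSO −23.5. With 500 bp they were 45.6% for GC and −29.2 for AP1, and the ETS difference from the regions in all 4 lists was −1.12. Against the regions in all 4 lists weighted for GC, the differences were 7.86 points for introns and intergenic sequence, −5.70 for AP1, 4.05 for ETS and 7.56 for GATA. With weights for NS DMSO score they were 10.9, −6.65 for AP1 and 11.5 for GATA. Over 1 kb from any TSS they were 0.630, −8.91 for AP1, 10.2 for GATA and −3.87 for RUNX. In the same distal regions, a comparison chosen after seeing the data, the GATA difference was 15.9 points from regions missing only in NS rottlerin, 12.9 from SW rottlerin and 9.75 from NS DMSO, that of AP1 from NS DMSO −31.2, and those from NS rottlerin −0.215 for EGR and −0.265 for CpG-island-like sequence. GC weights for the 3 groups missing from 1 list and the windows moved by 1 kb were also chosen after seeing the data. The cause of these shifts was not tested. No paired analysis was possible because each list is 1 library and no result comes from a test. Depth is unknown, so a region without a peak is one not called in that library.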
